A study of Rattus norvegicus with 6 samples.

Results

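Enolase is the glycolytic enzyme that turns 2-phosphoglycerate into phosphoenolpyruvate, and 3 rat genes for it, Eno1, Eno2 and Eno3, were followed here in H9c2 cells, an established myoblast line from embryonic rat heart. The genes were taken by symbol from a table of 24360 genes, and their 17 transcripts by source gene from a table of 44501 transcripts. They had been chosen by their readout in these same samples, in the contrast of ginsenoside Rb2 against control. Levels, fold changes and calls of the enolases in that contrast are therefore a description and carry no test. The gene lists below were also chosen with earlier results of these data known, so their counts and p-values are a description too. The 3 Ctrl samples are labelled WT in genotype and NC in treatment. The 3 Rb2 samples are also labelled WT and received ginsenoside Rb2, a saponin of ginseng. All samples carry 1 protocol text, with 48 h of Rb2, 4 to 6 h of deprivation and 12 h after return, which leaves unstated whether the controls went through the deprivation. All samples are 1 cell line, and no label says whether the replicates were cultured separately. The p-values below thus cover only the spread among these 6 samples, and that spread may be technical.

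Enolases work as dimers of alpha, gamma and beta subunits. Eno1 encodes the alpha subunit found in nearly all tissues, Eno2 the gamma subunit known from neurons, and Eno3 the beta subunit known from skeletal and heart muscle. In the developing heart and in muscle, alpha enolase is known to give way to the beta form as myocytes mature. Several glycolytic genes, Eno1 and Eno2 among them, are known targets of the hypoxia-inducible factor HIF-1. Alpha enolase at the cell surface also binds plasminogen.

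The 6 libraries held 5193077 to 8793390 gene counts, the most in Ctrl replicate 1, so 3 counts correspond to 0.341 to 0.578 CPM (counts scaled to a common library total). Of 11551 genes tested, 312 (2.70%) had an adjusted p under 0.05 in edgeR's quasi-likelihood test, which is what called means below. Of these, 219 were higher and 93 (0.805% of those tested) lower in Rb2. The split was 135 higher and 92 lower with upper-quartile factors, 463 and 80 with library sizes alone, which shifted the median over all genes by 0.11 on the log2 scale, and 135 and 114 with a length offset. Without Rb2 replicate 2 it was 0 and 3, and without Ctrl replicate 1 it was 605 and 291. DESeq2 gave 323 and 95, and limma-voom 185 and 74. The groups did not overlap at 27.2% of tested genes, and 2308 (20.0%) had an unadjusted p under 0.05. The mean length of the transcript behind a count was 1172 to 1228 bases in the Ctrl libraries and 1244 to 1255 bases in the Rb2 libraries, so length moved with treatment. Its part in the enolase differences was not tested beyond the fit with a length offset. That fit gave log2 fold changes of -0.19 for Eno1, -1.03 for Eno2 and 0.025 for Eno3. Without the offset they were -0.08, -0.92 and 0.09.

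Eno2 (ENSRNOG00000048365), the neuronal isozyme, was lower in Rb2, and it was 1 of 3 enolases called, against the 2.70% of all tested genes called. Its level, as CPM scaled by trimmed mean of M values (TMM), was 153, 155 and 174 in the Ctrl samples and 91.7, 85.3 and 77.5 in the Rb2 samples, in the order of their replicate numbers, as in all lists below. Every Ctrl sample was above every Rb2 sample. The Ctrl samples averaged 161 ± 11.5 and the Rb2 samples 84.8 ± 7.11 (SD, n = 3), a Ctrl level 1.90 times that in Rb2 and a log2 fold change of -0.92 (SE 0.11). The raw counts behind it were 1261, 860 and 996 in Ctrl and 515, 492 and 421 in Rb2. Eno2 was not called without Rb2 replicate 2 (log2 fold change -0.92) or without Rb2 replicate 3 (-0.86), and the fit with a length offset gave -1.03.

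The promoter of Eno2, the enolase that was lower in Rb2, and those of Eno1, whose gene level overlapped between the groups, are shown because the protocol includes a deprivation step and HIF-1 binds a short core motif. Each window is the 250 bases before an annotated gene start in RefSeq on GRCr8, 5′ to 3′ on the strand of the gene, with the core motif (ACGTG or GCGTG, or CACGT or CACGC for the opposite strand) in capitals. All 3 enolase genes matched by symbol, Eno1 with 2 windows.
Eno2, chr4:159267221-159267470, minus strand: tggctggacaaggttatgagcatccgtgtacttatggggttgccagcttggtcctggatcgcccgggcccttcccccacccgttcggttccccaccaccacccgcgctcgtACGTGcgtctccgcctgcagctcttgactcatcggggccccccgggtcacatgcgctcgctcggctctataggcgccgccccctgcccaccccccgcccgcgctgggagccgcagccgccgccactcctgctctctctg
Eno1, chr5:166002617-166002866, plus strand: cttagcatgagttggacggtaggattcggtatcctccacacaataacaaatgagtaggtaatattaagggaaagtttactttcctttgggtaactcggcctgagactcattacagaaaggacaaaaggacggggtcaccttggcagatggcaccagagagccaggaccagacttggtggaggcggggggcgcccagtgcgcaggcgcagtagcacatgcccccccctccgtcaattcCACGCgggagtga
Eno1, chr5:166003111-166003360, plus strand: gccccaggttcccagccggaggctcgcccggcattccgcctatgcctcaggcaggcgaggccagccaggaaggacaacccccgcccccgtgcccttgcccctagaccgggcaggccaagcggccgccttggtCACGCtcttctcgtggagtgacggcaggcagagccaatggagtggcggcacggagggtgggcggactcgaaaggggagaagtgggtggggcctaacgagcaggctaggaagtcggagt
The Eno2 window held ACGTG 139 bases before the start. The Eno1 windows held CACGC at 13 and 118 bases before their starts. The Eno3 window (chr10:55868936-55869185, plus strand) held none of these letters. A match is common: 12284 of 33469 RefSeq promoter windows of this length (36.7%) hold at least 1. The matches describe letters in a window and were not tested as binding sites.

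Eno1 (ENSRNOG00000017895), the housekeeping isozyme, was the most abundant enolase and overlapped between the groups. Its level was 1041, 1439 and 1509 TMM-scaled CPM in Ctrl and 1293, 1243 and 1234 in Rb2. Ctrl replicate 1 was the lowest of the 6 and the other two Ctrl samples were the highest, with the 3 Rb2 samples close together between them. The means were 1330 ± 253 and 1257 ± 31.5 (SD, n = 3), with a log2 fold change of -0.08 (SE 0.13), and Eno1 was not called. The fit without Ctrl replicate 1 called 605 genes higher and 291 lower over all. In it the log2 fold change was -0.21 and Eno1 was called, as were its pathway neighbours Tpi1, Gapdh, Pgk1 and Pkm. Its sign turned under several settings: 0.028 with library sizes alone, 0.035 without Ctrl replicate 3 and 0.051 with the deposited CPM plus 1. RefSeq lists 34 entries named as copies of Eno1, 31 of them pseudogenes, of which 1 has a row in the gene table, with 2 counts over the 6 samples. How reads shared with such copies were counted is not given in the sources used here, so the Eno1 counts are uncertain to that extent.

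Eno3 (ENSRNOG00000004078), the muscle isozyme, had a level of 53.8, 63.3 and 65.0 TMM-scaled CPM in Ctrl and 66.2, 62.0 and 65.1 in Rb2. The groups overlapped, with Ctrl replicate 1 again the lowest. The means were 60.7 ± 6.05 and 64.5 ± 2.16 (SD, n = 3), with a log2 fold change of 0.09 (SE 0.12), and Eno3 was not called.

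**Figure D1:**
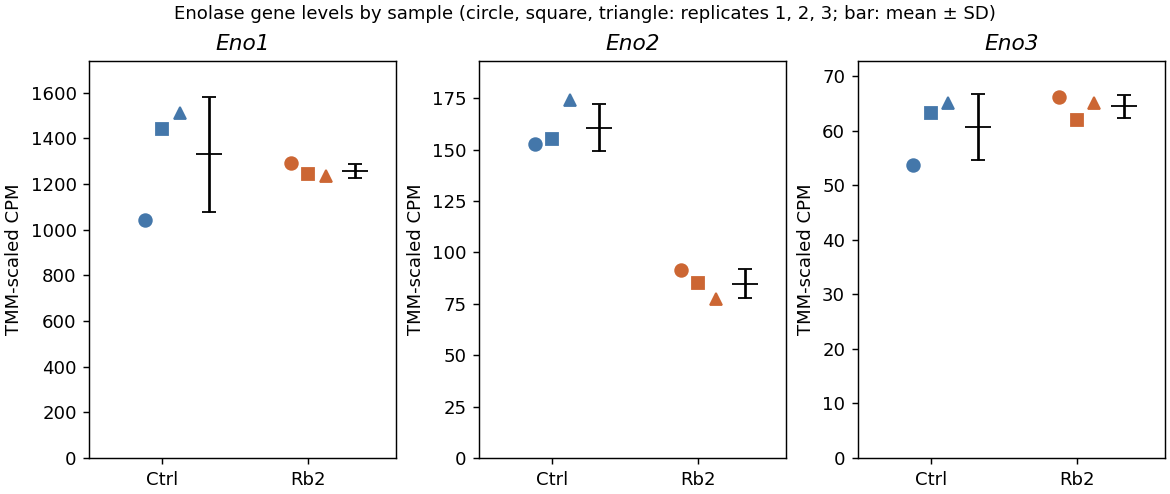
Level of each enolase gene in TMM-scaled CPM (y axis from 0) in the 3 Ctrl and 3 Rb2 samples. Points are samples and bars are the mean ± SD; for Eno2 every Ctrl sample (153 to 174) lies above every Rb2 sample (77.5 to 91.7), while Eno1 and Eno3 overlap.

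Levels of the 3 isozymes were set side by side per kilobase of transcript, each transcript's counts being divided by its own length. Eno1 stood at 601, 831 and 871 CPM per kilobase in Ctrl and 747, 718 and 713 in Rb2. Eno2 stood at 64.9, 65.9 and 73.8 in Ctrl and 38.9, 36.2 and 32.9 in Rb2. Eno3 stood at 36.5, 43.1 and 44.7 in Ctrl and 45.1, 42.2 and 44.3 in Rb2. Eno1 was first in all 6 samples, at 9.25 to 12.6 times Eno2 in Ctrl and 19.2 to 21.7 times Eno2 in Rb2. Eno2 was the second isozyme in every Ctrl sample and the third in every Rb2 sample. The log2 ratio of Eno2 to Eno3 per kilobase was 0.83, 0.61 and 0.73 in Ctrl and -0.21, -0.22 and -0.43 in Rb2. In Rb2 the order of these neighbours rests on the lengths used: with the deposited gene lengths the ratio in Rb2 was 0.02, 0.01 and -0.20, so that Eno2 was above Eno3 in 2 of the 3 Rb2 samples.

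Ratios within a library do not depend on the scaling between libraries. The log2 ratio of Eno2 to Eno1 counts was -2.77, -3.21 and -3.12 in Ctrl and -3.82, -3.87 and -3.99 in Rb2, a difference of -0.86 (SE 0.15). The log2 ratio of Eno2 to Eno3 counts was 1.51, 1.30 and 1.42 in Ctrl and 0.47, 0.46 and 0.25 in Rb2, a difference of -1.02 (SE 0.094). Neither ratio overlapped between the groups. The ratio of Eno3 to Eno1 did overlap, with a difference of 0.15 (SE 0.086). Relative to both other enolases, then, Eno2 was lower in every Rb2 library than in any Ctrl library.

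**Figure D2:**
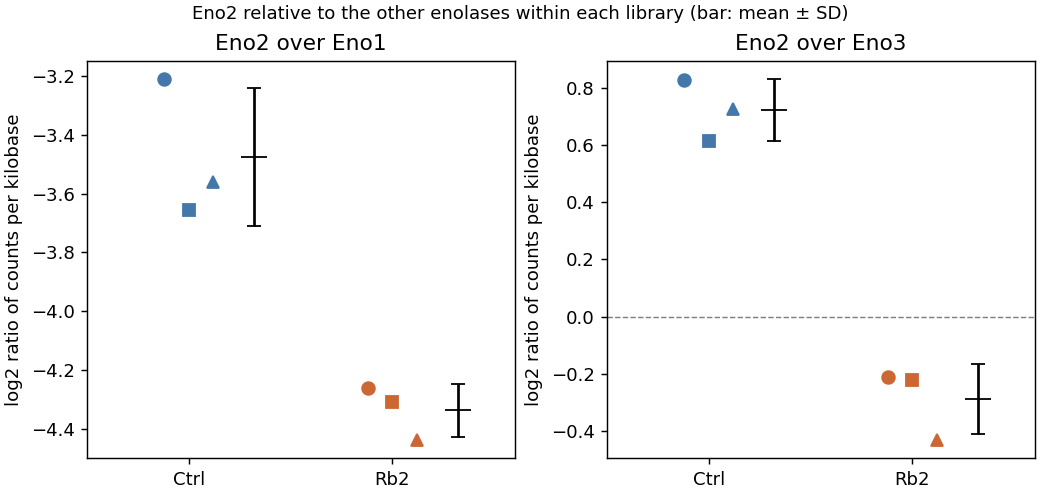
Log2 ratio of Eno2 to Eno1 (left) and of Eno2 to Eno3 (right), as counts per kilobase of transcript, in the 3 Ctrl and 3 Rb2 samples. Points are samples and bars are the mean ± SD; the Eno2 to Eno3 ratio is above the dashed line at 0 in each Ctrl sample (0.61 to 0.83) and below it in each Rb2 sample (-0.43 to -0.21), and the y axes do not start at 0.

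As a share of all enolase transcripts per kilobase, Eno2 made up 9.25%, 7.02% and 7.46% in Ctrl and 4.68%, 4.54% and 4.16% in Rb2, a mean of 7.91 ± 1.18% against 4.46 ± 0.27% (SD, n = 3). Eno1 made up 85.5% to 88.4% in Ctrl and 89.9% to 90.2% in Rb2. Eno3 made up 4.77 ± 0.38% and 5.44 ± 0.15%. Shares are parts of a whole, so a lower Eno2 share by itself raises the others. The level of Eno1 per kilobase averaged 767 ± 146 in Ctrl and 726 ± 18.2 in Rb2. The highest Eno2 share was that of Ctrl replicate 1, the sample with the lowest Eno1. The total over the 3 genes was 702, 940 and 990 CPM per kilobase in Ctrl and 830, 796 and 790 in Rb2. The totals overlapped between the groups, and since Eno1 is most of the pool, they follow its level sample by sample.

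The 17 enolase transcripts were 9 of Eno1, 1 of Eno2 and 7 of Eno3, and 15 of them had at least 1 count. Their counts sum to the gene counts in all 6 samples. Models without an Ensembl identifier are named ONT in the table, and nothing there gives their exons, so they are known here only by gene, length and count. No transcript in the table was called among 16679 tested (0%) by edgeR's quasi-likelihood test, although 2304 had an unadjusted p under 0.05 and DESeq2 called 210 higher and 138 lower. DESeq2 called 2 of the enolase transcripts. The groups did not overlap at 23.0% of tested transcripts, and among the 8 enolase transcripts tested that held for 2.

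The first of these 2 was the only transcript listed for Eno2, Eno2-201 (ENSRNOT00000005535, 2357 bases). It stood at 156, 156 and 174 TMM-scaled CPM in Ctrl and 91.7, 85.6 and 78.0 in Rb2, with a log2 fold change of -0.93 (SE 0.10). It repeats the gene row, since all Eno2 counts are assigned to it. The other was ONT.13966.6, at 1828 bases the longest of the tested Eno1 models. It stood at 14.6, 17.2 and 19.6 TMM-scaled CPM in Ctrl and 4.81, 5.05 and 4.45 in Rb2, from 118, 95 and 112 counts against 27, 29 and 24. The Ctrl mean of 17.2 ± 2.51 was 3.60 times the Rb2 mean of 4.77 ± 0.30 (SD, n = 3), a log2 fold change of -1.84 (SE 0.19). Every Ctrl sample was above every Rb2 sample.

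Within Eno1, ONT.13966.6 took 1.38%, 1.19% and 1.30% of the counts in Ctrl and 0.372%, 0.404% and 0.358% in Rb2, a mean of 1.29 ± 0.091% against 0.378 ± 0.024%. The difference of 0.911 percentage points is small beside the main transcript. Eno1-201 (ENSRNOT00000024106, 1730 bases), the annotated mRNA, took 93.4%, 95.9% and 95.1% in Ctrl and 96.1%, 96.0% and 95.9% in Rb2. Its level of 1272 ± 245 CPM in Ctrl and 1211 ± 28.2 in Rb2 overlapped between the groups, as Eno1 itself did (log2 fold change -0.07, SE 0.14). In the test of transcript usage, which called 14 of 3361 genes (0.417%), neither Eno1 nor Eno3 was called, and Eno2 has no second transcript to compare. Counts of such near-identical models depend on how shared reads were assigned, which is not given in the sources used here.

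The other Eno1 models were minor and overlapped between the groups. ONT.13966.5 (1771 bases) had 34.6 ± 5.42 CPM in Ctrl and 32.9 ± 4.99 in Rb2, with a log2 fold change of -0.07 (SE 0.18). ONT.13966.9 had 6.66 ± 2.00 and 5.88 ± 1.17 CPM (-0.17, SE 0.31), and ONT.13966.4 had 6.67 ± 3.64 and 4.49 ± 2.41 CPM (-0.58, SE 0.52). ONT.13966.10 and Eno1-202, at means of 1.13 and 1.12 CPM in Ctrl and 1.01 and 0.954 CPM in Rb2, were under the count filter and not tested. None of these log2 fold changes lay as far from 0 as that of ONT.13966.6.

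Eno3 differed from Eno1 in that nearly all of its counts lay outside the annotated mRNA. The annotated Eno3-201 had 0, 0 and 2 counts in Ctrl and 1, 0 and 0 in Rb2, and the annotated share of Eno3 counts was 0% to 0.538%, against 93.4% to 96.2% for Eno1. Of 4814 genes with an annotated mRNA and at least 10 CPM, 553 (11.5%) had under 1% of their counts on annotated models, and the median share was 88.0%, so Eno3 belongs to a minority but is not alone in it. Of the 4814 genes, 782 (16.2%) had only 1 transcript, the annotated one, and could not fall under 1%. Among genes with several transcripts, as Eno3 has, the minority is therefore somewhat larger. The other models carried Eno3, and 2 of them were abundant enough to test. ONT.2699.4 (1469 bases) took 62.5%, 74.0% and 74.5% of its counts in Ctrl and 67.2%, 74.0% and 65.5% in Rb2. ONT.2699.6 (1477 bases) took 36.6%, 24.9% and 24.5% in Ctrl and 31.7%, 25.4% and 33.9% in Rb2. Both shares overlapped between the groups. The log2 fold changes were 0.04 (SE 0.16) and 0.19 (SE 0.19).

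**Figure D3:**
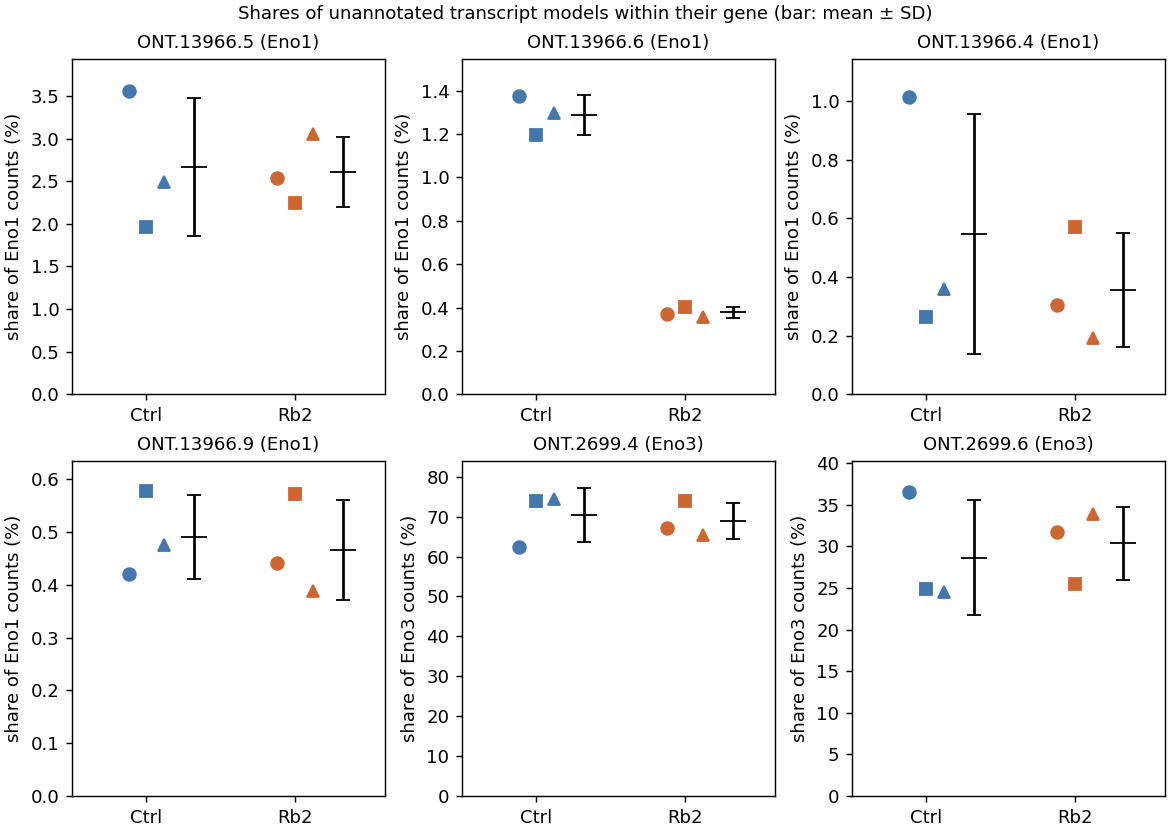
Share of its gene's counts (percent, y axis from 0) taken by each unannotated enolase model that was tested, in the 3 Ctrl and 3 Rb2 samples. Points are samples and bars are the mean ± SD; ONT.13966.6 of Eno1 is at 1.19% to 1.38% in Ctrl and 0.358% to 0.404% in Rb2, and the other 5 models overlap between the groups.

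Among the other genes of glycolysis and glucose supply, 2 were called, both lower. As the list was chosen with earlier results known, its calls and p-values are a description. Of 31 listed, 29 had a row and 23 were tested, of which 2 fell, 0 rose and 21 were not called. Of all tested genes, 2.70% were called and 0.805% were called lower. In edgeR's test, 11 of the 23 had an unadjusted p under 0.05, beside 20.0% of all tested genes. DESeq2 and limma-voom each called 2, both lower, beside 95 and 74 genes called lower over all. The median log2 fold change of the 23 was -0.12, beside -0.02 over all tested genes, and 15 of the 23 were below 0. The groups did not overlap at 11 of the 23, beside the 27.2% of all tested genes. The count of members that fell was 9 without Ctrl replicate 1, 1 without Ctrl replicate 2, 1 without Rb2 replicate 1, 0 without Rb2 replicate 2 and 1 without Rb2 replicate 3. Over all genes those fits called 291, 13, 14, 3 and 10 lower, in that order, against 93 with all samples. Without Ctrl replicate 3, 1 member was called higher, Pdk3, a pyruvate dehydrogenase kinase, beside 433 genes called higher over all. Both called members act at the entry of glucose. Slc2a1, the glucose transporter GLUT1, was at 16.0, 13.2 and 15.5 TMM-scaled CPM in Ctrl and 2.85, 2.77 and 3.31 in Rb2, so no sample overlapped. It fell with a log2 fold change of -2.32 (SE 0.21, adjusted p = 0.00269, edgeR's quasi-likelihood test). Hk2, hexokinase 2, was at 28.0, 30.0 and 26.0 in Ctrl and 11.9, 10.9 and 16.4 in Rb2. It fell with a log2 fold change of -1.10 (SE 0.18, adjusted p = 0.0269, same test). The call of Hk2 was lost without Ctrl replicate 2 and without each Rb2 sample in turn (adjusted p of 0.0741 to 0.188 in the same test), and that of Slc2a1 without Rb2 replicate 2 (0.0576).

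The steps next to enolase gave no call in edgeR's test, in 6 genes tested of 7 listed. At an unadjusted p under 0.05 there were 2 of the 6, beside the 20.0% of all tested genes, and DESeq2 and limma-voom called 0. Without Ctrl replicate 1, Gapdh, Pgk1 and Pkm were called lower (log2 fold changes of -0.23, -0.24 and -0.26), beside 291 genes called lower over all. Upstream, Gapdh, the glyceraldehyde-3-phosphate dehydrogenase, had 8415 ± 1379 TMM-scaled CPM in Ctrl and 7757 ± 513 in Rb2 (log2 fold change -0.12, SE 0.12). Pgk1, the phosphoglycerate kinase, had 704 ± 135 and 654 ± 28.3 (-0.10, SE 0.13). Pgam1, the phosphoglycerate mutase that makes the substrate of enolase, had 221 ± 16.4 and 183 ± 15.0 (-0.27, SE 0.10), and its groups did not overlap at TMM scaling. The muscle form Pgam2 was near the floor at 1.57 and 1.67 and was not tested. Downstream, Pkm, the pyruvate kinase that uses the product of enolase, had 3621 ± 210 and 3068 ± 218 (-0.24, SE 0.082), again without overlap at that scaling. The TMM factors were 0.944 to 0.995 in Ctrl and 1.02 to 1.05 in Rb2. With library sizes alone the groups of Pgam1 and Pkm overlapped, at log2 fold changes of -0.15 and -0.13. The lactate dehydrogenases Ldha, at 2211 ± 621 and 2306 ± 49.8 (0.06, SE 0.19), and Ldhb, at 518 ± 77.1 and 521 ± 7.25 (0.01, SE 0.11), overlapped. Beside these, Eno2 at -0.92 lay farther from 0 than any neighbour tested.

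**Figure D4:**
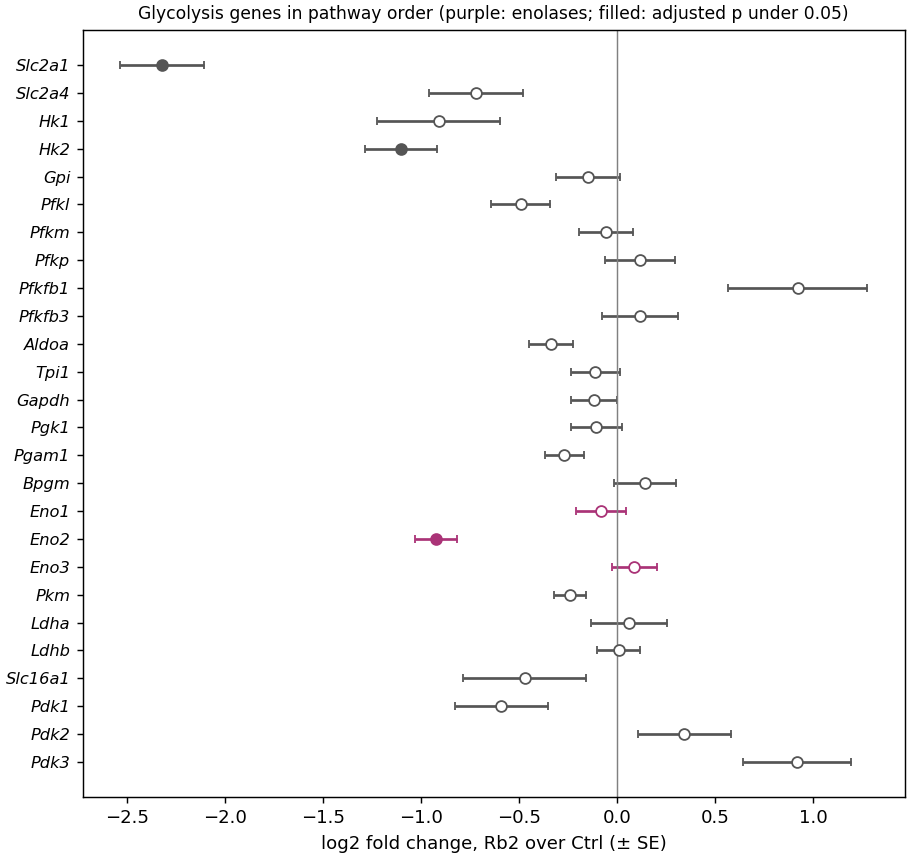
Log2 fold change of Rb2 over Ctrl (x axis, ± SE) for the tested genes of glycolysis and glucose supply, listed from glucose uptake at the top to lactate and pyruvate at the bottom, with enolases in purple. Filled points are called; Slc2a1 (-2.32), Hk2 (-1.10) and Eno2 (-0.92) are filled, and Eno1 (-0.08) and Eno3 (0.09) lie near 0.

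Of 8 genes of the HIF pathway, which includes the oxygen sensors that set HIF levels, 6 were tested and none was called by edgeR's test. At an unadjusted p under 0.05 there were 2 of the 6, beside 20.0% of all tested genes. DESeq2 called 1 (Egln1, lower) and limma-voom 0, beside 95 and 74 genes called lower over all. The groups did not overlap at 3 of the 6, beside 27.2% of all tested genes. Hif1a, the oxygen-regulated subunit of HIF-1, was at 3.40, 4.52 and 6.29 TMM-scaled CPM in Ctrl and 8.72, 9.53 and 8.83 in Rb2 (log2 fold change 0.95, SE 0.25, adjusted p = 0.078 in edgeR's test). Egln1, a prolyl hydroxylase that marks HIF for breakdown, was at 19.2, 12.8 and 7.69 in Ctrl and 6.41, 5.55 and 4.97 in Rb2 (log2 fold change -1.24, SE 0.32, adjusted p = 0.073 in edgeR's test). Vhl, the ubiquitin ligase subunit that binds hydroxylated HIF, was at 16.9, 18.4 and 20.4 in Ctrl and 16.7, 15.6 and 13.1 in Rb2 (log2 fold change -0.29, SE 0.17). At TMM scaling all 3 levels were separate between the groups, Hif1a higher and the other 2 lower in Rb2, and none passed the test. For Vhl the gap was narrow, with 16.9 in Ctrl replicate 1 and 16.7 in Rb2 replicate 1. Its groups overlapped with library sizes alone. Without Ctrl replicate 3, Egln1 was called lower (-1.50) and Hif1a higher (1.22), beside 211 genes called lower and 433 higher over all. The median log2 fold change of the 6 was -0.21, beside -0.02 over all tested genes. The most abundant, Egln2, another prolyl hydroxylase, had 22.7, 17.7 and 19.7 TMM-scaled CPM in Ctrl and 15.3, 20.1 and 19.9 in Rb2, which overlap. Epas1 and Egln3 had 0 counts in all samples. Of 8 genes of plasminogen binding and activation, 7 had a row and were tested, 1 rose and 0 fell, beside the 2.70% of all tested genes called. In edgeR's test, 3 of the 7 had an unadjusted p under 0.05, beside 20.0% of all tested genes. DESeq2 and limma-voom each called 1 (Plgrkt, higher), beside 323 and 185 genes called higher over all. The groups did not overlap at 2 of the 7, beside 27.2% of all tested genes. Plgrkt, a plasminogen receptor with a C-terminal lysine, was at 13.2, 15.2 and 17.6 in Ctrl and 26.3, 26.0 and 26.3 in Rb2, with a log2 fold change of 0.78 (SE 0.16, adjusted p = 0.0423, edgeR's quasi-likelihood test). Among the fits that leave out 1 sample, its call was lost without Ctrl replicate 2 and without each Rb2 sample. Genes with like names were separate: Eno4 had 2 counts in all 6 samples, and Enoph1, an enolase-phosphatase of the methionine salvage pathway, had 22.7 ± 7.79 and 25.9 ± 1.74 CPM and was not called.

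Markers of the labelled cell type were only partly present. Of 11 cardiac markers 9 had a row and 3 were tested, with a summed level of 56.6 to 75.2 CPM in Ctrl and 54.8 to 64.0 in Rb2, and Actc1, a main cardiac actin, was at 0. Tnnt2, cardiac troponin T, had 52.9 CPM in Ctrl and 45.3 in Rb2. Of 13 markers of skeletal muscle and myoblasts 9 had a row and 6 were tested, with a sum of 160 to 179 CPM in Ctrl and 168 to 172 in Rb2. Most of that sum was Cav3, the muscle caveolin, at a mean of 128 CPM in Ctrl and 122 in Rb2. A mean under 1 CPM was found for 3 of the 9. Of 13 neuronal markers 9 had a row and none was abundant enough to test: their sum was 2.18 to 4.19 CPM in Ctrl and 1.84 to 4.85 in Rb2, with Rbfox3 and Syt1 at 0. Eno2, for which neurons are known, was thus measured in cells whose neuronal markers were at or near 0 in both groups. No gene of these 3 lists was called by edgeR's test, by DESeq2 or by limma-voom, and 0 had an unadjusted p under 0.05. In bulk samples, fewer cells with a transcript and less of it per cell cannot be told apart.

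Endothelial, epithelial and leukocyte lists of 4 genes each gave 0, 1 and 1 tested genes. Krt8 had 36.8 CPM in Ctrl and 36.1 in Rb2, and Cd14 had 26.1 and 27.6, while Ptprc, Epcam and Cdh1 were at 0. Of 7 fibroblast-like genes, 6 were tested and none was called by edgeR's test, with 2 of the 6 at an unadjusted p under 0.05 (20.0% of all tested genes), 1 called by DESeq2 (Col3a1, a collagen, 895 CPM in Ctrl and 1188 in Rb2) and 0 by limma-voom. Col3a1 was also called without Ctrl replicate 1 (0.38) and, with S100a4 (-0.36), without Ctrl replicate 3 (0.50). Over all genes DESeq2 called 323 higher, and those fits called 605 and 433 higher. Summed, the list stood at 6158 to 6568 CPM in Ctrl and 6325 to 6650 in Rb2.

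Genes with the most similar pattern were found by the root mean square difference between log2 CPM values, each centred on its mean over the 6 samples, among 6611 genes. The samples share their libraries and depth, so likeness is a description only. For Eno1 the nearest were Pgk1 (0.023) and Tpi1 (0.024), both glycolytic enzymes, then Ddx39a, Pdlim1 and Tmem109 (up to 0.030), where the median gene was at 0.258. All of them share the low value of Ctrl replicate 1, where Eno1 was 0.30 below its mean. For Eno2 the nearest were Hilpda (0.108), a lipid droplet protein, Icoslg (0.133), Hbegf (0.145), a growth factor of the EGF family, Lims2 (0.154) and Ddit3 (0.154), a stress transcription factor, with a median gene at 0.522. These 5 were high in the Ctrl libraries and low in the Rb2 libraries, as Eno2 was. For Eno3 the nearest were Lrrc42 (0.021), Mterf4, Nol12, Smim7 and H2afz (up to 0.027), with a median gene at 0.222.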

How the data were processed

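RNA of H9c2 cells, 3 Ctrl and 3 Rb2 samples, was analysed from a gene table and a transcript table of raw counts. Each has a separate matching table of CPM, and the deposited CPM equals count divided by the column total. The submitters' processing notes name HISAT2, DESeq2 and a mouse build (mm10), with no role, while the identifiers are of the rat, so no coordinates were taken from the tables. A further 18 per-sample columns of each file match no sample and were not used. The labels' kit is for short reads, and how the ONT models were built is not given in the sources used here.

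Counts were tested in R 4.3.3 with edgeR 4.0.16 (filterByExpr, TMM, quasi-likelihood test, Benjamini-Hochberg adjustment over all genes or transcripts, adjusted p under 0.05), and transcript usage with its diffSpliceDGE. SE is the absolute log2 fold change over the square root of F. DESeq2 1.42.0, limma 3.58.1, other scalings, filters, pseudocounts, a length offset, a replicate block and leaving out each sample were alternatives. Enolase shares with gene lengths were added after the data had been seen. The steps were tested on simulated data.

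The members and gene lists were chosen with earlier results of these data known. Named were the enolases, their transcripts with a mean of at least 1 CPM, called list members, the most abundant member of a list without calls, enolase neighbours and the 5 most similar genes of at least 5 CPM. Marker genes and members of lists named beyond this rule were chosen after their values were seen. Promoters are from RefSeq (GRCr8).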

Additional observations from a re-analysis of the deposited data

How the results depend on the processing

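Eno2 was called lower in 15 of 17 alternatives (log2 fold change -1.03 to -0.80), Eno3 in 0, and Eno1 in 1. ONT.13966.6 was lower in all 17 (-1.95 to -1.54) and called in 5, and Eno2-201 was called in 4. Deviations of same-numbered Ctrl and Rb2 samples from their group means had correlations of -0.067, -0.061 and -0.007. In groups this small, such values cannot tell whether the numbers mark pairs. A replicate block gave 12 genes called higher and 21 lower, and 1 glycolysis gene lower. With it Eno2 and Slc2a1 were still called, and Hk2 (-1.11, adjusted p = 0.069 in edgeR's test) and Plgrkt (0.78, adjusted p = 0.087) were not.

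Genes called higher numbered 135 with upper-quartile factors, 463 with library sizes alone, 386 with no filter (150 lower), 514 and 480 by limma on deposited CPM plus 1 and plus 0.1, and 135 with a length offset. Transcripts called higher and lower numbered 8 and 19 with no filter, 210 and 138 with DESeq2, 10 and 19 with CPM plus 1, 4 and 11 with CPM plus 0.1, and 0 and 5 with a length offset. Enolase transcripts called were 2 with no filter, 2 with DESeq2, 1 with CPM plus 1 and 2 with a length offset. The Eno2 share of enolase differed by -4.51 percentage points both with counts not divided by length and with gene lengths, a setting chosen after seeing the data.

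Leaving out each sample gave 0 to 2 enolase genes called, 0 to 605 genes higher, 3 to 291 genes lower, 0 to 2 enolase transcripts, 0 to 13 transcripts higher, 0 to 28 transcripts lower, 0 to 1 glycolysis genes higher and 0 to 9 lower.

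Signs near 0 turned. With library sizes alone the log2 fold change was 0.028 for Eno1, 0.044 for Eno1-201, 0.047 for ONT.13966.5 and 0.0045 for Pgk1. With CPM plus 1 it was 0.051 for Eno1, 0.069 for Eno1-201, 0.050 for ONT.13966.5, 0.0077 for Gapdh and 0.027 for Pgk1, and with CPM plus 0.1 it was 0.051, 0.069, 0.051, 0.0077 and 0.027 in that order. With a length offset it was -0.0044 for ONT.2699.4, -0.018 for Ldha and -0.025 for Ldhb, and with upper-quartile factors -0.038 for Ldhb. Leaving out each sample gave -0.21 to 0.035 for Eno1, -0.22 to 0.042 for Eno1-201, -0.19 to 0.036 for ONT.13966.5, -0.40 to 0.028 for ONT.13966.9, -0.10 to 0.15 for ONT.2699.4, -0.24 to 0.0033 for Pgk1, -0.14 to 0.22 for Ldha and -0.094 to 0.095 for Ldhb. The cause was not tested. The samples held 24 to 118 counts of ONT.13966.6, against 6430 to 8217 of Eno1-201.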
